A study of Mus musculus with 12 samples.

Results

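Obese mice that had received pregnenolone 16alpha-carbonitrile (PCN) were compared with obese mice for which the labels state no injection. The comparison rests on 6 of the 12 RNA sequencing libraries of the series. HFD PCN 5, 11 and 27 are 3 libraries of C57BL/6N mice that were given a high-fat diet from 6 weeks of age for 18 weeks and then PCN at 50 mg/kg into the peritoneum on each of 4 days. HFD 4, 30 and 38 are 3 libraries of C57BL/6N mice on the same diet for the same time, whose treatment field is empty. The strain, the diet and the obesity are shared by both groups, so what differs by label is PCN together with the injections. The solvent of the PCN injections is not given in the labels used here. The libraries were taken by their labels, and their counts come from 2 tables, 1 for HFD with Chow and 1 for HFD PCN with HFD Vehicle, of which the 28008 genes in both were used. Because each group sits in its own table, PCN, the injection and anything that differed between the tables cannot be told apart here. HFD Vehicle 23, 50 and 55, from obese mice injected for 4 days with 30% DMSO in corn oil, and Chow 8, 17 and 19, from lean mice with no injection stated, are set beside the results.

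PCN is a steroid that binds PXR, the pregnane X receptor of rodents, which Nr1i2 encodes and which is known best from liver and gut, where it switches on genes that oxidise, conjugate and export drugs and bile acids. Gonadal white fat stores triglyceride in adipocytes and also holds a dense capillary bed, fibroblasts and their progenitors, a covering layer of mesothelium, and macrophages, mast cells and lymphocytes. In obesity the immune and scar-forming cells of this depot are known to expand while its vessels and its fat-making genes decline.

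The series title names gonadal white fat, whereas the source field of every library names duodenum. Fabp4, the fatty acid carrier of adipocytes, was at 3390 to 6200 CPM (counts scaled to a common library size) in the 6 libraries, and Epcam, carried by gut epithelium, was at most at 0.19 CPM, so the markers were those of fat. Total counts ranged from 16646176 to 27408092 per library. Across genes, log2 CPM correlated at 0.9911 to 0.9934 between HFD libraries and at 0.9734 to 0.9802 between HFD PCN libraries. HFD PCN 5 correlated with the HFD libraries at 0.9819 to 0.9863, higher than with HFD PCN 11 (0.9734) or HFD PCN 27 (0.9802). HFD Vehicle 50 stood apart at 0.8761 to 0.9445 with the other obese libraries, so differences from vehicle are given with and without it. Its macrophage genes summed to 1562 CPM, within the Chow libraries (1032 to 2193) and far below HFD Vehicle 23 and 55 (7788 and 8475). Its lysosomal genes, at 4897 CPM, were also within the Chow libraries (3494 to 6543). Its adipocyte genes, at 46120 CPM, stayed below the Chow libraries (71600 to 80720). Why this library was near Chow in these lists was not tested. The share of counts from mitochondrial ribosomal RNA was 1.4% to 1.79% in the HFD libraries and 2.02% to 2.51% in the HFD PCN libraries, and its part in the results was not tested.

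Levels are in CPM scaled over all libraries together, and a log2 fold change is PCN minus uninjected. The value after ± beside a log2 fold change is its standard error. No label states whether the 3 libraries of a group were separate animals, and p-values cover only the spread among these libraries, which may be technical in part. Of 16927 genes with enough counts, 732 (4.32%) passed an adjusted p of 0.05 in edgeR, 503 higher in PCN (2.97%) and 229 lower (1.35%). At least a 2-fold difference was seen for 328 of the higher and 123 of the lower genes. In the 732 genes no HFD library overlapped an HFD PCN library, a separation seen in 37.4% of all genes tested (17.9% higher and 19.5% lower in PCN). The adjusted p values lay close to the threshold, since the smallest was 0.00286. The count depended on single libraries. It was 0 without HFD 4, 1 without HFD 30, 0 without HFD 38, 4 without HFD PCN 27, 670 without HFD PCN 11 and 5167 without HFD PCN 5. DESeq2 called 2435 genes on the same libraries, 1455 higher and 980 lower.

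**Figure D1:**
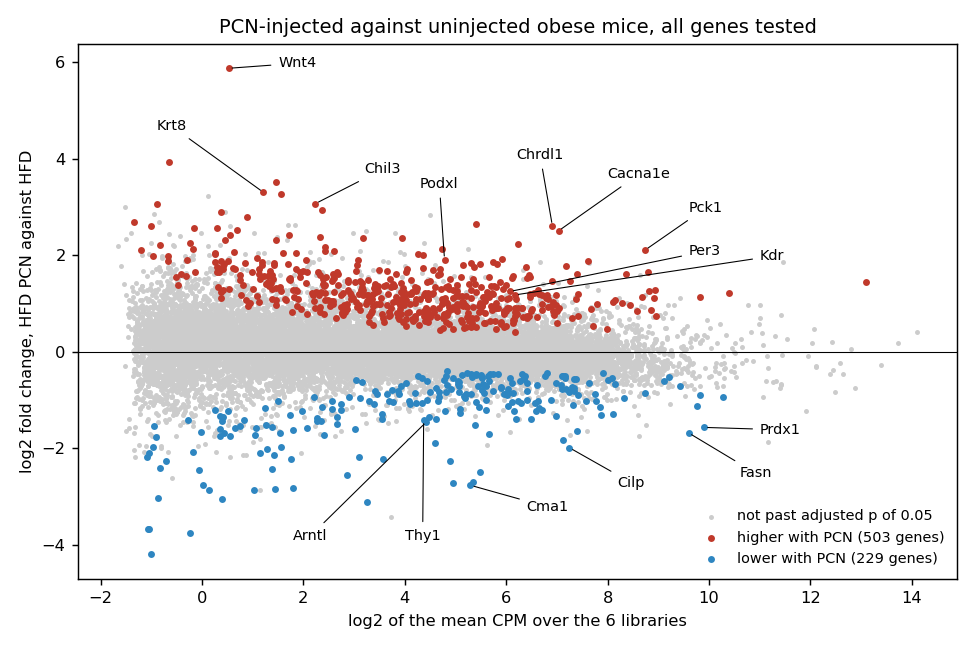
Log2 fold change of HFD PCN against HFD (vertical axis) against the log2 of the mean CPM over the 6 libraries (horizontal axis), 1 point per gene tested. Red points are the 503 genes called higher in PCN and blue points the 229 called lower, and the grey cloud is centred near 0 (median log2 fold change 0.00363). The fitted value of Wnt4 depends on the prior count, since it had 3 counts without injection.

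Podxl, which encodes the sialomucin podocalyxin on endothelial and mesothelial surfaces, had the smallest adjusted p. Its level was 11.2, 12.4 and 11.1 CPM in HFD 4, 30 and 38, and 43.9, 39.9 and 46.8 CPM in HFD PCN 5, 11 and 27. Each PCN library was above every HFD library, and the difference was a log2 fold change of 1.91 ± 0.11 (edgeR, adjusted p = 0.00286). Podxl lies on chromosome 6 from 31519488 to 31563981 (GRCm38). Thy1, a surface protein of fibroblasts and T cells on chromosome 9 (44043384 to 44048579), went the other way. It measured 31.6, 29.3 and 29.5 CPM in the HFD libraries and 11.2, 11.7 and 10.9 CPM in the PCN libraries, with no overlap (log2 fold change -1.41 ± 0.09, edgeR, adjusted p = 0.00598). Cilp, a matrix protein first known from cartilage, was at 244, 277 and 208 CPM without injection and at 51.2, 69.8 and 62.5 CPM with PCN (log2 fold change -1.99 ± 0.16, edgeR, adjusted p = 0.0132). Cacna1e encodes the pore of R-type calcium channels and was at 35.8, 41.6 and 40.1 CPM against 163, 287 and 219 CPM (log2 fold change 2.51 ± 0.21, edgeR, adjusted p = 0.0132). Dusp9, a phosphatase that switches off MAP kinases, was at 15, 13.3 and 13.5 CPM against 30.8, 28.9 and 30.1 CPM (log2 fold change 1.1 ± 0.1, edgeR, adjusted p = 0.0132). These 5 genes had the smallest adjusted p of all.

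Set beside the vehicle group, the 5 leading genes took different positions. In HFD Vehicle 23, 50 and 55, Podxl was at 28.7, 78.6 and 18.9 CPM, all above the HFD libraries, while Thy1 was at 13, 8.75 and 16.5 CPM, all below them. Cilp spread from 35.5 CPM in HFD Vehicle 50 to 179 CPM in HFD Vehicle 55, and every one of these values was under the HFD libraries. Dusp9 was at 17.3, 9.54 and 21 CPM, so all 3 vehicle libraries were under the PCN libraries. The difference of PCN from vehicle in edgeR on the 9 obese libraries was 0.08 on the log2 scale for Podxl (95% interval -0.9 to 1.05), and 0.87 (0.48 to 1.26) without HFD Vehicle 50, so the value near 0 rests on that library. For Cacna1e it was 0.69 (-0.26 to 1.65), and 1.42 (0.93 to 1.91) without that library. For Thy1 it was -0.17 (-0.65 to 0.31), and -0.37 (-0.67 to -0.08) without it. For Cilp it was -0.52 (-1.71 to 0.66), and -0.9 (-1.83 to 0.03) without it. For Dusp9 it was 0.91 (0.34 to 1.48), and 0.65 (0.37 to 0.93) without it. None of the 5 was called against vehicle in either fit.

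**Figure D2:**
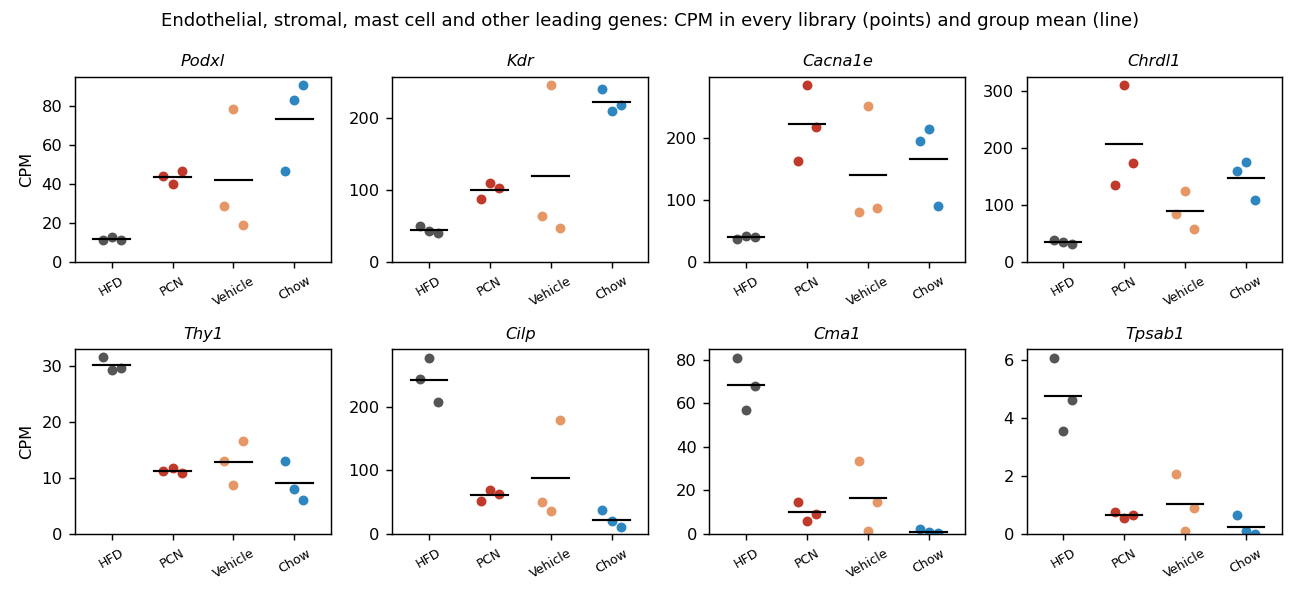
CPM of Podxl, Kdr, Cacna1e, Chrdl1, Thy1, Cilp, Cma1 and Tpsab1 in each of the 12 libraries (points), with the mean of each group as a line and a vertical axis from 0. The HFD and HFD PCN points do not overlap in any panel, and the vehicle points spread widely with HFD Vehicle 50 the highest of the 9 obese libraries in Podxl (78.6 CPM) and Kdr (247 CPM).

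The largest rises included genes of epithelial layers, of signalling and of myeloid cells. Krt8, a keratin of simple epithelia and mesothelium, was at 0.609, 0.551 and 0 CPM in HFD 4, 30 and 38 and at 5.7, 3.14 and 3.9 CPM in HFD PCN 5, 11 and 27 (log2 fold change 3.31, edgeR adjusted p = 0.0319). Wnt4, a secreted Wnt ligand, had only 3 counts over the HFD libraries and 179 over the PCN libraries, a ratio of 67.6 (95% interval 22.8 to 331, counting error only). Chil3, a chitinase-like protein of alternatively activated macrophages, was at 1.1, 0.845 and 1.05 CPM against 8.34, 2.42 and 14.5 CPM (log2 fold change 3.07, edgeR adjusted p = 0.041). Chrdl1, a secreted antagonist of bone morphogenetic proteins, was at 37.1, 34.2 and 30.2 CPM against 135, 311 and 174 CPM (log2 fold change 2.61, edgeR adjusted p = 0.018). The other large rises were Crb2, Cgn, Sctr, Miat, Adgrb2, Pkhd1l1 and Prtn3, with log2 fold changes of 2.53 to 3.51. Miat is uncertain, since 30.4% of its exon bases are shared with an overlapping gene. Among the largest falls outside mast cells, Frem1, a basement membrane protein, was at 11.6, 18.1 and 21.8 CPM against 4.23, 0.935 and 0.295 CPM (log2 fold change -3.12, edgeR adjusted p = 0.0494). Cck, H19, Thbs4 and Mgam fell from means of 2.35, 1.94, 3.6 and 6.16 CPM to 0.278, 0.261, 0.489 and 0.828 CPM.

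Genes of the circadian clock separated the groups in both directions. The clock runs on a loop in which ARNTL with CLOCK or NPAS2 drives the Per and Cry genes, whose proteins then repress them, while DBP, TEF and HLF drive further rhythmic genes. Of 20 clock genes tested, 6 rose, 2 fell and 12 were not called, with a median log2 fold change of 0.81 against 0.00363 over all genes. Calls made up 40% of the list, against 4.32% of all genes tested. Arntl, on the driving arm, was at 37, 28.9 and 28.6 CPM in HFD 4, 30 and 38 and at 10, 13 and 11.6 CPM in HFD PCN 5, 11 and 27. Every PCN library was below every HFD library (log2 fold change -1.45 ± 0.15, edgeR, adjusted p = 0.0172). Npas2 fell with it, from a mean of 9.3 to 3.32 CPM, and Clock did not pass the test (136 against 130 CPM).

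On the repressing arm, Per3 was at 31.7, 44 and 43.8 CPM against 89.2, 103 and 91.4 CPM (log2 fold change 1.25 ± 0.14, edgeR, adjusted p = 0.0178). Per2 rose from 23.1 ± 4.27 to 83.2 ± 24.5 CPM (SD, n = 3 each). Dbp rose from 17.4 ± 4.33 to 51.2 ± 11.1 CPM, Tef from 91.2 ± 9.62 to 172 ± 15.2 CPM and Hlf from 1.93 ± 0.339 to 8.84 ± 2.92 CPM. Nr1d1, which encodes REV-ERB alpha, had non-overlapping groups but was not called (16 to 23.6 CPM against 26.3 to 59.5 CPM, edgeR adjusted p = 0.0559). The labels used here give no hour of sampling, and its part in the clock genes was not tested. In the vehicle libraries Arntl was at 18.2, 11.5 and 11.5 CPM and Per3 at 76.7, 223 and 74.8 CPM, on the PCN side of the HFD libraries in all 3. The list's median difference of PCN from vehicle was -0.19, and 0.18 without HFD Vehicle 50.

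**Figure D3:**
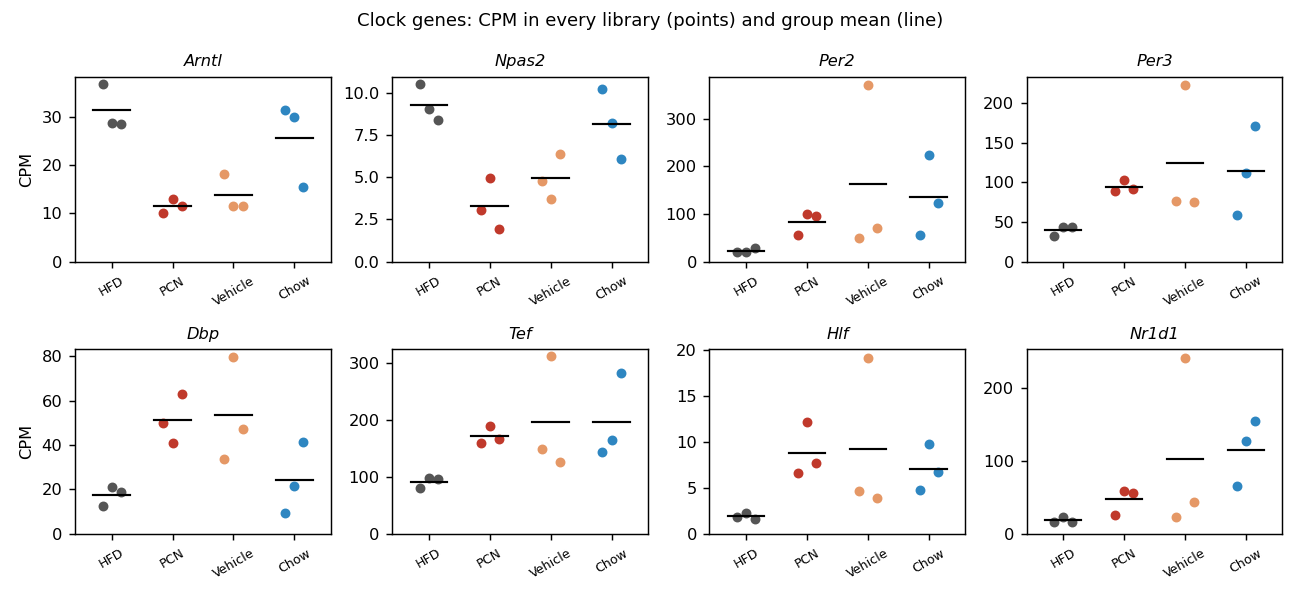
CPM of 8 clock genes in each of the 12 libraries (points), with group means as lines and a vertical axis from 0 in each panel. Arntl and Npas2 are lower and the other 6 genes are higher in every HFD PCN library than in every HFD library, and HFD Vehicle 50 is the highest library for Per2 (370 CPM) and Nr1d1 (242 CPM).

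Per3 held a known kind of clock element in its upstream window, which is printed to show where it lies. The sequence is that of RefSeq (GRCm38.p6), 250 bases before the start of Per3 on the minus strand, chr4:151044666-151044915, written 5′ to 3′ with the D-box letters TTATGTAA, the element bound by DBP, TEF and HLF, in capitals.
Per3: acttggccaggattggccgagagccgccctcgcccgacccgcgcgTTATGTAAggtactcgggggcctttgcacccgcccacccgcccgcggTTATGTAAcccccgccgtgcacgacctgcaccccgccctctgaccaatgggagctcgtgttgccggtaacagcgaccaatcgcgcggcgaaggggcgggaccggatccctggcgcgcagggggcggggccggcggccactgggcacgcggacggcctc
The D-box occurred 2 times in this window, and 0.819% of the 32851 RefSeq windows of that length that were searched held it on either strand. Of the 8 called clock genes 6 had a window. Besides the D-box in Per3, 1 held an E-box (CACGTG, Tef), which 6.02% of all windows hold, and none held the ROR element TAGGTCA, which 2.23% hold. In windows of 300 bases, 11.3% of tested genes held an E-box and 0.766% a D-box. These matches are letters in a window and were chosen for printing after the windows had been searched.

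Among the antioxidant genes that the factor NRF2 controls, those called were all lower in PCN. Of 25 tested, 8 fell, none rose and 17 were not called, with a median log2 fold change of -0.62. In 17 of the 25 every PCN library was below every HFD library. Over all genes tested, 1.35% were called lower and 19.5% were lower without overlap. Gclm, a subunit of the enzyme that limits glutathione synthesis, was at 75.5, 58.8 and 69.4 CPM in HFD 4, 30 and 38 and at 31.4, 25.3 and 31.5 CPM in HFD PCN 5, 11 and 27 (log2 fold change -1.21 ± 0.13, edgeR, adjusted p = 0.0172). Prdx1, a peroxidase and the most abundant of the 8, was at 1480, 1200 and 1610 CPM against 741, 365 and 343 CPM (log2 fold change -1.57 ± 0.31, edgeR, adjusted p = 0.0413). Cbr3, a carbonyl reductase, fell by 1.3 on the log2 scale and Taldo1, of the pentose phosphate pathway, by 1.01. Srxn1, Txnrd1, Txn1 and Nqo1 completed the falls, with means of 182, 223, 206 and 7.94 CPM in the HFD libraries and 72.6, 120, 117 and 3.91 CPM in the PCN libraries. Gclm was at 28, 19.9 and 28.5 CPM in the vehicle libraries, so both injected groups lay below the uninjected one without overlap. For Gclm the difference of PCN from vehicle was 0.21 on the log2 scale (95% interval -0.19 to 0.62), and 0.06 (-0.25 to 0.37) without HFD Vehicle 50. The lysosomal list had a median log2 fold change of -0.49 with 1 of 30 genes called lower, and the lipid-associated macrophage list one of -0.77 with none of 20 called, and their part in these falls was not tested.

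The upstream window of Gclm is printed because the gene had the smallest adjusted p of the antioxidant list. The 250 bases before its RefSeq start, chr3:122245307-122245556 on the plus strand of GRCm38.p6, carry in capitals the antioxidant response element core TGACNNNGC, here on the opposite strand.
Gclm: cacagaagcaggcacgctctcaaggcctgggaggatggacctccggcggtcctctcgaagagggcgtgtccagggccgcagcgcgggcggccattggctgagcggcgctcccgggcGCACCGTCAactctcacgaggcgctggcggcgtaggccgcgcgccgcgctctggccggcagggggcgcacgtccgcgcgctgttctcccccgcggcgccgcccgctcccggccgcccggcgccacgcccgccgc
The core was held by 10.2% of all windows and by 3 of the 8 called antioxidant genes (Gclm, Txnrd1 and Prdx1). Shares of windows and of genes differ, since a gene can have several windows. In windows of 300 bases, 12.4% of windows, 16.8% of tested genes and 21.4% of all genes called lower held the core. A first look had covered 17 patterns on both strands in windows that also took in 50 bases after the start, and its shares are given with the processing.

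Called genes of sterol synthesis were all lower as well. Of 23 tested, 6 fell (26.1%, against 1.35% of all genes tested) and none rose, with a median log2 fold change of -0.66. Nsdhl, an enzyme that removes methyl groups from sterols, was at 27.1, 24.4 and 23.9 CPM against 11.1, 14.9 and 10.1 CPM (log2 fold change -1.07 ± 0.16, edgeR, adjusted p = 0.0259). Ebp, the sterol isomerase, was at 39.8, 39.9 and 43.7 CPM against 29.6, 28.7 and 29.6 CPM (log2 fold change -0.49 ± 0.08, edgeR, adjusted p = 0.0303). Lss, Dhcr7 and Insig1 were among the other falls, with log2 fold changes of -1.04, -0.65 and -0.66. The median difference of PCN from vehicle over this list was 0.02, and -0.09 without HFD Vehicle 50. That of vehicle from uninjected mice was -0.64, and -0.48 without that library, the latter pair sharing the HFD libraries with the main comparison.

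Adipocyte genes moved in both directions. Of 27 tested, 4 rose, 2 fell and 21 were not called (22.2% called, against 4.32% of all genes tested). The median log2 fold change was 0.49. Pck1, the enzyme that makes glycerol for triglyceride in fat, was at 209, 137 and 137 CPM in HFD 4, 30 and 38 and at 410, 1020 and 654 CPM in HFD PCN 5, 11 and 27 (log2 fold change 2.11 ± 0.34, edgeR, adjusted p = 0.0289). Aqp7, the glycerol channel, was at 71.6, 81 and 80.4 CPM against 133, 219 and 173 CPM (log2 fold change 1.17 ± 0.18, edgeR, adjusted p = 0.0269). Mlxipl, which encodes the carbohydrate-sensing factor ChREBP, rose from 15.8 ± 2.9 to 55.3 ± 22.6 CPM (SD, n = 3 each), and Slc2a4, the insulin-regulated glucose transporter, from 22.8 ± 2.27 to 60.8 ± 27.7 CPM. In contrast, Acly, which makes acetyl-CoA from citrate, was at 293, 316 and 324 CPM against 205, 213 and 202 CPM (log2 fold change -0.59 ± 0.1, edgeR, adjusted p = 0.0289). Fasn, fatty acid synthase, was at 1110, 1350 and 1080 CPM against 200, 551 and 353 CPM (log2 fold change -1.68 ± 0.34, edgeR, adjusted p = 0.0423). Slc25a1, the citrate carrier that feeds Acly, fell from 139 ± 6.5 to 62 ± 8.74 CPM and Acss2, which makes acetyl-CoA from acetate, from 60.3 ± 2.82 to 27.5 ± 10.2 CPM. Scd1, the desaturase, did not follow them, with 4440 to 5990 CPM in the HFD libraries and 3420 to 10100 CPM in the PCN libraries (edgeR adjusted p = 0.764). Adipoq (436 ± 93.4 against 944 ± 531 CPM) and Lep (1450 ± 76.1 against 1730 ± 577 CPM) were not called, and for Lep the groups overlapped.

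Fasn spread widely in the vehicle libraries. It was at 745, 1560 and 508 CPM in HFD Vehicle 23, 50 and 55, the last within the range of the PCN libraries and HFD Vehicle 50 above the HFD libraries. The difference of PCN from vehicle was -1.33 on the log2 scale (95% interval -2.39 to -0.27, not called), or -0.76 (-1.58 to 0.05) without HFD Vehicle 50. For Acly the vehicle libraries were at 221, 242 and 224 CPM, each between the PCN and the HFD libraries. Pck1 in HFD Vehicle 50 was at 2430 CPM, far above 413 and 183 CPM in HFD Vehicle 23 and 55.

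In the insulin pathway 3 of 24 genes rose and 2 fell (20.8% called, against 4.32% of all genes tested, median log2 fold change 0.19). Irs2, an adaptor of the insulin receptor, was at 49.1, 44.7 and 41.7 CPM against 77.2, 174 and 145 CPM (log2 fold change 1.55 ± 0.27, edgeR, adjusted p = 0.0326). Irs1 and Slc2a4 were the other risers, Irs1 sharing 30.9% of its exons with an overlapping gene. Grb14, an inhibitor of the insulin receptor, was at 21.3, 14.7 and 18.6 CPM against 6.91, 10 and 9.86 CPM (log2 fold change -1.03 ± 0.2, edgeR, adjusted p = 0.038), and Slc2a1, the basal glucose transporter, fell from 33.6 ± 1.33 to 17.4 ± 4.77 CPM. Of 21 adipokine genes 5 rose (23.8%, against 2.97% of all genes tested) and none fell. Sfrp5, a secreted Wnt inhibitor, was at 70, 64.2 and 60.9 CPM against 148, 294 and 232 CPM (log2 fold change 1.79 ± 0.23, edgeR, adjusted p = 0.0219), and Vegfa, the main growth factor of vessels, at 40.5, 49.4 and 39.5 CPM against 78.4, 152 and 162 CPM (log2 fold change 1.6 ± 0.26, edgeR, adjusted p = 0.0289). Nrg4 and Fgf21 were also among the 5. Hsd11b1, which regenerates active glucocorticoid, rose from 21.2 ± 2.36 to 60.4 ± 9.21 CPM, whereas the glucocorticoid receptor Nr3c1 was at 192 ± 9.47 and 208 ± 12.4 CPM. Of 26 glucocorticoid targets 1 rose (Pdk4) and 1 fell (Sgk1), or 7.7% called against 4.32% of all genes tested.

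Called endothelial genes were all higher in PCN, with receptors of Vegfa among them. Of 19 tested, 7 rose (36.8%, against 2.97% of all genes tested) and none fell. All 19 had an estimate above 0, and the median log2 fold change was 0.8. Leaving out 1 library gave 0 to 19 rises in this list. Kdr, the main VEGF receptor of endothelium, was at 49.8, 42.8 and 39.7 CPM in HFD 4, 30 and 38 and at 87, 110 and 103 CPM in HFD PCN 5, 11 and 27 (log2 fold change 1.18 ± 0.13, edgeR, adjusted p = 0.0172). Flt1, a second VEGF receptor, was at 61.2, 64.5 and 66.3 CPM against 122, 209 and 200 CPM (log2 fold change 1.47 ± 0.2, edgeR, adjusted p = 0.0234). Eng, Ptprb, Nos3, Gpihbp1 and Egfl7 also rose, by 0.9 to 1.14 on the log2 scale, Egfl7 with 11.2% of its exon bases overlapped. The general endothelial markers Pecam1 (151 ± 6.9 against 219 ± 60.8 CPM) and Cdh5 (93.5 ± 1.31 against 162 ± 49.5 CPM) were not called. Cd300lg and Btnl9, both carried by capillary endothelium, rose from 56.6 ± 1.09 to 131 ± 15.3 CPM and from 58 ± 8.97 to 140 ± 11.5 CPM. In whole tissue, a change in the number of cells of a type and a change in RNA per cell cannot be told apart. The list summed to 1060 to 1070 CPM in the HFD libraries, 1410 to 2440 CPM in the PCN libraries, and 1385, 3936 and 1377 CPM in HFD Vehicle 23, 50 and 55. For Kdr the difference of PCN from vehicle was -0.23 (95% interval -1.43 to 0.97), and 0.86 (0.47 to 1.24, edgeR adjusted p = 0.4) without HFD Vehicle 50.

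Some genes of the vessel wall and of lymphatics were higher too. Notch3, a receptor of pericytes and smooth muscle, was at 46.7, 57.3 and 57 CPM against 86.2, 132 and 153 CPM (log2 fold change 1.2 ± 0.21, edgeR, adjusted p = 0.0309), and Abcc9, a potassium channel subunit of pericytes, rose by 0.66 on the log2 scale, as 2 of 11 genes of these cells. Flt4 and Lyve1 were the risers among 8 lymphatic genes. Rises made up 18.2% of the pericyte and smooth muscle list and 25% of the lymphatic list, against 2.97% of all genes tested. Lyve1, also carried by resident macrophages, was at 22.5, 20.5 and 15.4 CPM against 42.7, 62.5 and 103 CPM (log2 fold change 1.83 ± 0.31, edgeR, adjusted p = 0.0304). For Lyve1 the vehicle libraries were at 29.2, 29.2 and 6.67 CPM, all below the PCN libraries (difference 1.69, 95% interval 0.5 to 2.89, and 1.93, 0.67 to 3.2, without HFD Vehicle 50, not called).

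Mesothelial genes had the highest median of all lists with at least 8 tested genes, 1.69. Of 21 tested, 4 rose (Krt8, Crb2, Upk1b and Nkain4), none fell, and 16 had every PCN library above every HFD library. Among all genes tested, 2.97% were called higher and 17.9% were higher without overlap. Upk1b, a membrane plaque protein, was at 2.02, 2.13 and 0.554 CPM in HFD 4, 30 and 38 and at 12.9, 6.16 and 6.44 CPM in HFD PCN 5, 11 and 27 (log2 fold change 2.39 ± 0.47, edgeR, adjusted p = 0.0405). Msln and Upk3b, the usual markers of this layer, were not called (edgeR adjusted p = 0.143 and 0.15), with HFD 38 low at 0.431 and 0.677 CPM while HFD 4 was at 6.05 and 7.5 CPM. Slpi, a secreted protease inhibitor also placed in this list, was at 24.9, 8.92 and 1.17 CPM against 9.36, 8.25 and 11.7 CPM, and the groups overlapped. In the vehicle libraries Slpi was at 1.34, 3.18 and 1.57 CPM, all below the PCN libraries (difference 2.33, 95% interval 0.36 to 4.31, and 2.75, 0.54 to 4.96, without HFD Vehicle 50, not called). Adgrd1, an adhesion receptor, was at 58.6, 64.1 and 42.3 CPM without injection, 83, 74.5 and 96.2 CPM with PCN and 46.5, 48.2 and 45.2 CPM with vehicle. It was not called against HFD (edgeR adjusted p = 0.0743) and lay 0.87 above vehicle on the log2 scale (95% interval 0.48 to 1.26, and 0.88, 0.48 to 1.29, without HFD Vehicle 50, not called). The median difference of PCN from vehicle over the mesothelial list was 1.28, and 2.75 without HFD Vehicle 50, while that of vehicle from uninjected mice was 0.37, and -0.38 without it. The list's sum was 194 to 308 CPM in HFD, 352 to 432 CPM in PCN and 178 to 301 CPM in vehicle libraries.

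Mast cell genes had the lowest median of all lists with at least 8 tested genes. Of 15 tested, 8 fell (53.3%, against 1.35% of all genes tested), none rose and 7 were not called. The median log2 fold change was -2.14. Leaving out 1 library gave 0 to 12 falls in this list and medians of -2.7 to -1.88. Cma1, the chymase of mast cell granules, was at 80.8, 56.9 and 68.1 CPM in HFD 4, 30 and 38 and at 14.7, 5.83 and 9.27 CPM in HFD PCN 5, 11 and 27 (log2 fold change -2.77 ± 0.31, edgeR, adjusted p = 0.0174). Tpsab1, a tryptase, was at 6.05, 3.56 and 4.62 CPM against 0.755, 0.55 and 0.65 CPM (log2 fold change -2.84 ± 0.28, edgeR, adjusted p = 0.0172). Mcpt4, Cpa3, Tpsb2, Fcer1a, Mrgprb1 and Mrgprb2, further proteases and receptors of these cells, had log2 fold changes from -2.72 to -2.11. Kit, the stem cell factor receptor, Gata2, Hpgds and Srgn, which other cells also carry, were not called. Ms4a2 and Hdc, also listed as mast cell markers, were not called either. Il1rl1, the receptor for interleukin-33 on mast and other type 2 cells, was at 42.6, 39.9 and 34.3 CPM against 18, 17.5 and 14.2 CPM (log2 fold change -1.23 ± 0.13, edgeR, adjusted p = 0.0172). The vehicle libraries had Cma1 at 33.5, 1.29 and 14.6 CPM and the Chow libraries at a mean of 1.02 CPM. All vehicle values lay below the HFD libraries, and they overlapped the PCN libraries. The difference of PCN from vehicle was -0.74 for Cma1 (95% interval -2.54 to 1.06) and -1.26 (-2.16 to -0.36) without HFD Vehicle 50.

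**Figure D4:**
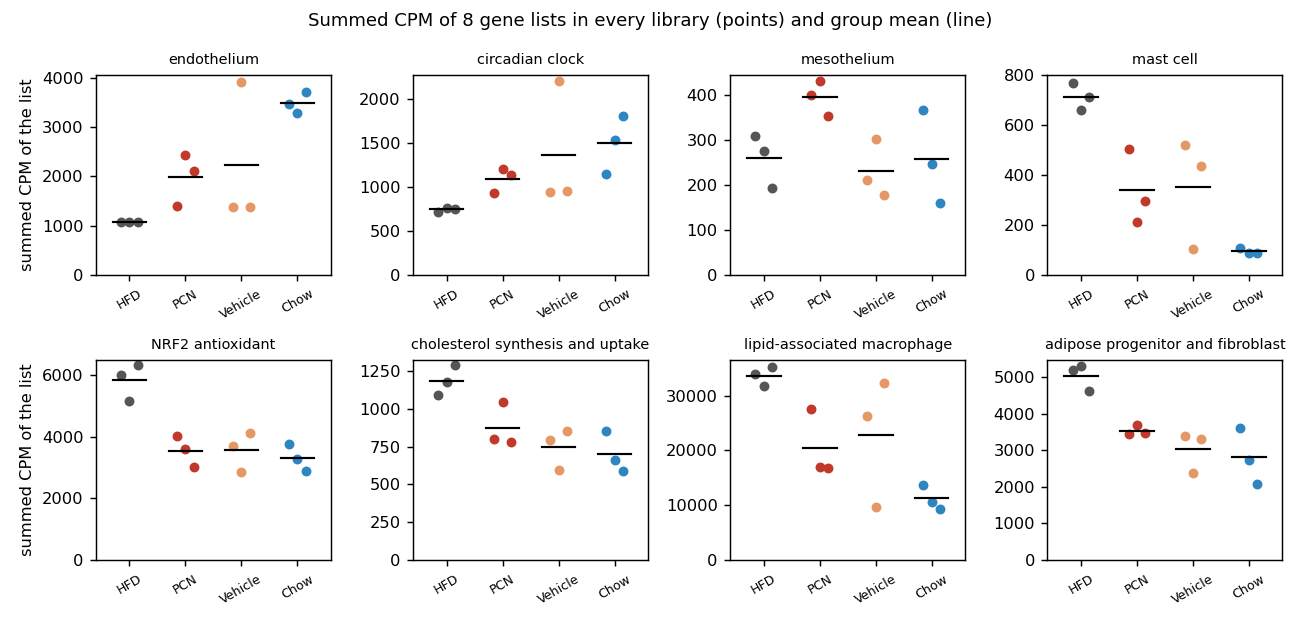
Summed CPM of 8 gene lists in each of the 12 libraries (points), with group means as lines and vertical axes from 0. HFD and HFD PCN libraries do not overlap for any of the 8 lists, and the sums over the mast cell and macrophage lists also hold genes of other cells.

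Most fibroblast and matrix genes did not pass the test. Of 24 genes of adipose progenitors and fibroblasts 4 fell (Thy1, Pi16, Lum and Mfap5) and none rose (median log2 fold change -0.39). The falls were 16.7% of that list, against 1.35% of all genes tested. Lum, the matrix proteoglycan lumican, was at 374, 411 and 381 CPM against 193, 126 and 160 CPM (log2 fold change -1.28 ± 0.16, edgeR, adjusted p = 0.0205). Pi16, a marker of early progenitors, was at 46.6, 56.4 and 39.5 CPM against 20.2, 19.6 and 22.9 CPM (log2 fold change -1.19 ± 0.14, edgeR, adjusted p = 0.0197). Of 40 matrix genes 6 fell and 2 rose (20% called, against 4.32% of all genes tested, median -0.15). Col6a3, a chain of the collagen VI that surrounds adipocytes, was at 1150, 1170 and 1210 CPM against 633, 679 and 577 CPM (log2 fold change -0.9 ± 0.13, edgeR, adjusted p = 0.0251). Postn, Col5a2, Mmp2, Mmp14 and Loxl2 were the other falls. Thbs2, a matricellular protein, rose from 211, 267 and 223 to 463, 480 and 440 CPM. For Thbs2 the vehicle libraries were at 272, 351 and 211 CPM, all under the PCN libraries (difference 0.74, 95% interval 0.29 to 1.2, and 0.94, 0.57 to 1.3, without HFD Vehicle 50, not called). In the Col6a3 vehicle values of 885, 528 and 933 CPM, HFD Vehicle 50 was below the PCN libraries and the other 2 were above them.

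Macrophage genes hardly passed the test. None of 20 genes of lipid-associated macrophages, the cells that surround dying adipocytes, was called, and the median log2 fold change was -0.77. Every PCN library was below every HFD library in 16 of the 20, a separation in that direction seen in 19.5% of all genes tested. Trem2, the lipid receptor that marks them, was at 452, 447 and 442 CPM in HFD 4, 30 and 38 and at 383, 165 and 209 CPM in HFD PCN 5, 11 and 27 (edgeR adjusted p = 0.114). Itgax was at 629, 598 and 601 CPM against 246, 231 and 66.7 CPM (edgeR adjusted p = 0.0617). Of 20 general macrophage genes only Lyve1 was called (5%, against 4.32% of all genes tested). Adgre1, which encodes F4/80, was at 985 ± 24.2 against 609 ± 266 CPM (edgeR adjusted p = 0.199). Within the PCN group, HFD PCN 5 kept the highest Trem2 and Adgre1 (789 CPM). The general macrophage list summed to 3500 CPM in HFD PCN 11, against 7868 and 8513 CPM in HFD PCN 5 and 27 and 8754 to 9662 CPM in the HFD libraries. Its median log2 fold change was -0.33, and 0.01 without HFD PCN 11. Without HFD PCN 5, 13 of the 20 lipid-associated macrophage genes were called lower, as were 2446 of all 16688 genes tested in that setting. Without any other single library 0 or 1 of the 20 were called, where calls over all genes numbered 0 to 670. Ctss, a lysosomal protease of antigen-presenting cells, was the only call among 30 lysosomal genes (3.3%, against 4.32% of all genes tested). Its level was 1690, 1470 and 1750 CPM in the HFD libraries against 1100, 699 and 760 CPM in the PCN libraries. Among 18 genes of dendritic cells and antigen presentation, H2-DMb1 and Cd74, which load MHC class II, and the homing receptor Ccr7 fell, and Zbtb46 rose. Calls were 22.2% of that list, against 4.32% of all genes tested. No gene was called among 21 of T and NK cells, 10 of neutrophils, 25 interferon-stimulated and 19 complement genes.

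The receptor that PCN binds had almost no counts. Nr1i2 had 1 count over the HFD libraries and 2 over the PCN libraries, at or under 0.0615 CPM in each. Cyp3a11, its standard target in liver, had 3 counts without injection and 22 with PCN, of which 13 were in HFD PCN 5, 9 in HFD PCN 11 and 0 in HFD PCN 27. The ratio was 8.3 (95% interval 2.5 to 43.3, counting error only), and the gene was too low for the test. Of 39 listed PXR and CAR targets 16 had enough counts, 1 rose and 1 fell, and the median log2 fold change was 0.06. Called members were thus 12.5% of those tested, against 4.32% of all genes. Aldh1a1, a retinal dehydrogenase, was at 128, 121 and 112 CPM against 190, 222 and 177 CPM (log2 fold change 0.7 ± 0.12, edgeR, adjusted p = 0.0289). Its close relative Aldh1a7 was at 86.5, 70.8 and 74 CPM against 22.2, 33.2 and 16 CPM (log2 fold change -1.7 ± 0.24, edgeR, adjusted p = 0.0251). The pair are similar in sequence, so reads could be split between them. Aldh1a7 was at 50, 35.1 and 38.9 CPM in the vehicle libraries, between the other groups in all 3 (difference of PCN from vehicle -0.78, 95% interval -1.38 to -0.19, and -0.9, -1.49 to -0.3, without HFD Vehicle 50, not called). Among 31 nuclear receptor genes 5 rose (16.1%, against 2.97% of all genes tested) and none fell. Nr1h4, the bile acid receptor FXR, was at 1.45, 1.36 and 1.11 CPM against 2.98, 2.92 and 2.89 CPM (log2 fold change 1.15 ± 0.19, edgeR, adjusted p = 0.0289), with vehicle libraries at 1.3, 1.89 and 0.168 CPM. Vdr, Nr4a2 and Nr2f2 were also among the 5.

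**Figure D5:**
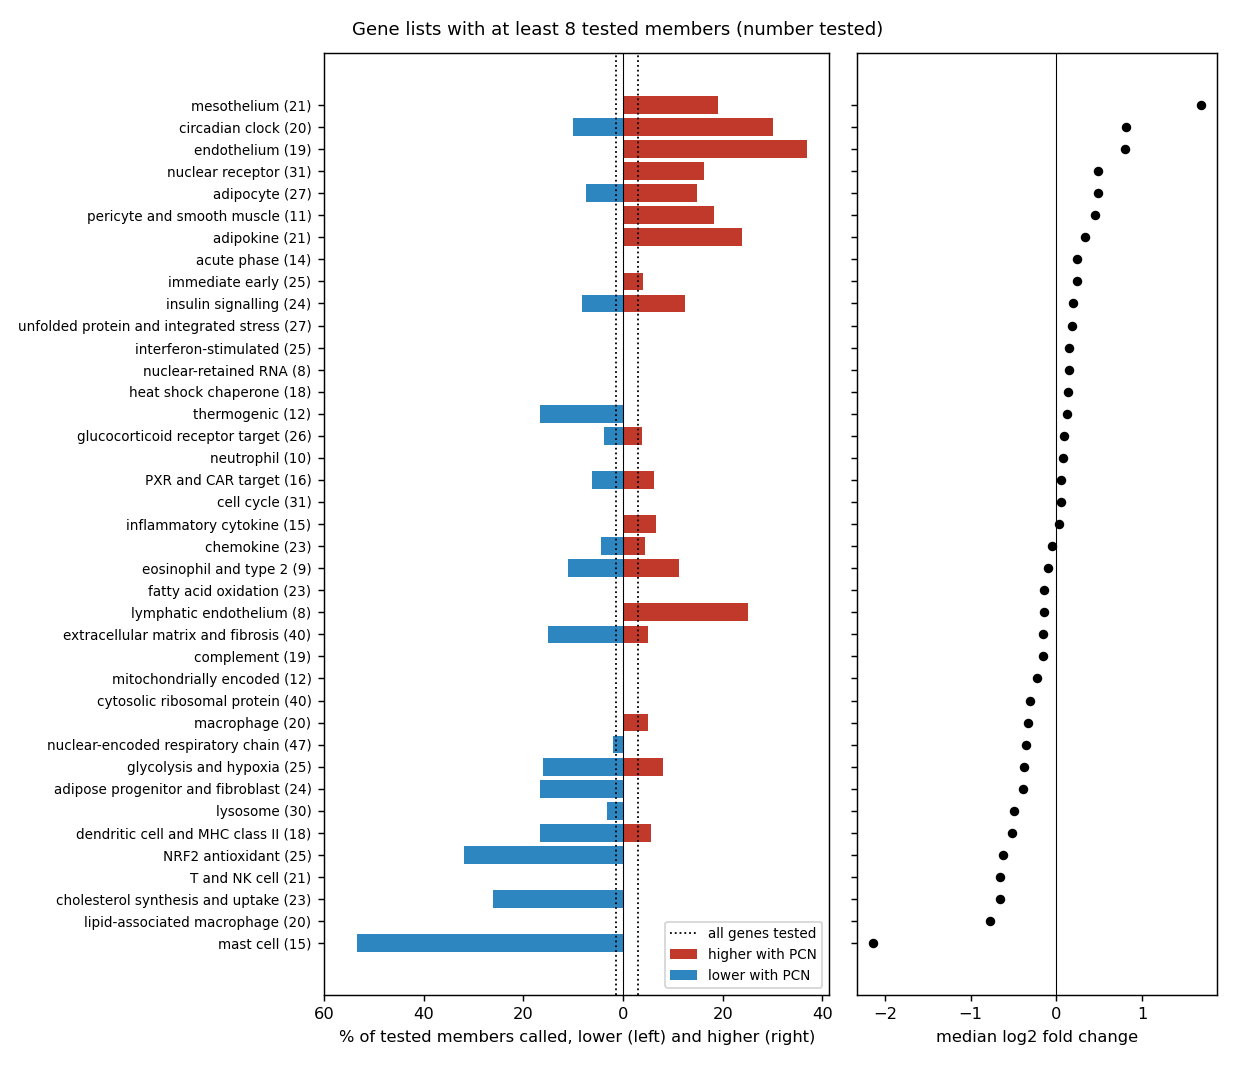
Left, the percentage of tested members of each gene list that was called lower (blue, to the left) or higher (red, to the right) in HFD PCN than in HFD, with dotted lines at 1.35% and 2.97%, the shares over all genes tested. Right, the median log2 fold change of each list, from -2.14 for mast cells to 1.69 for mesothelium.

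The vehicle group is the injected group without PCN. In edgeR on the 9 obese libraries none of 16939 genes was called between PCN and vehicle (0% of genes, with 648 at an unadjusted p under 0.05), while DESeq2 called 7 and limma-voom 0. Without HFD Vehicle 50, edgeR called 0 (1942 at an unadjusted p under 0.05), DESeq2 97 and limma-voom 0. Between vehicle and uninjected HFD mice, edgeR also called none (0% of genes, 2461 at an unadjusted p under 0.05, smallest adjusted p 0.338). That comparison shares the HFD libraries with the main one, and the comparison with vehicle shares the PCN libraries, so the medians are not independent. Side by side, the medians of PCN against uninjected, vehicle against uninjected and PCN against vehicle were -2.14, -1.8 and -0.38 for mast cells, -0.62, -0.56 and 0.06 for antioxidant genes, and 0.8, 0.68 and -0.02 for endothelium. For the mesothelium they were 1.69, 0.37 and 1.28. Without HFD Vehicle 50, the medians of vehicle against uninjected mice were -1.36, -0.51, 0.33 and -0.38 for those 4 lists in that order. The medians of PCN against vehicle were then -0.74, -0.07, 0.52 and 2.75.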

How the data were processed

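RNA sequencing counts per gene were deposited by the authors as whole-number counts in 2 tables. The tools named by the submitters' processing notes are DESeq2, HISAT2 and HTSeq, and the build is GRCm38 (mm10). Versions, the strand setting and filters are not given in the sources used here. The tables list 30453 and 30327 genes. The 28008 in both were used, and the 2445 and 2319 in 1 table only were not analysed here (among them Hspa1a, Hsp90aa1 and Dnajb1, and Cfd, Adrb3 and Retn). The shared genes hold 99.273% to 99.942% of the counts of the 6 libraries compared.

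Genes were filtered with filterByExpr (minimum count 10), scaled by TMM and tested with edgeR 4.0.16 (quasi-likelihood, R 4.3.3) with Benjamini-Hochberg adjustment at 0.05 over all genes tested. DESeq2 1.42.0 and limma 3.58.1 (voom), other scalings, filters and thresholds, other sets of libraries and leaving out each library were alternatives. Values against vehicle come from 1 edgeR fit of the 9 obese libraries, with 95% intervals. On simulated data for 16927 genes, with 100 changed 2-fold and 100 changed 4-fold, 70% and 96% of these changes were recovered. Of the calls 9.78% were false, above the 0.05 aimed at. The simulation gave both groups the same spread, whereas the real HFD libraries were closer to one another than the HFD PCN libraries. Its rates therefore need not hold for this comparison. Intervals of ratios of counts cover counting error only.

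The members and the 46 gene lists were chosen with earlier results of these data known. Genes were named as the 12 largest rises and 12 largest falls (called, not overlapping, mean of at least 1 CPM, no predicted genes), the 5 smallest adjusted p, up to 3 called members of each list (or the 1 with the smallest p), and Nr1i2, Cyp3a11, Lep, Adipoq, Adgre1, Ucp1, Nr3c1, Slpi and Adgrd1. Every other gene printed was chosen after its values were seen. Some genes counted in the lists are not reported here by name. Of the 28008 gene IDs 27999 were in GENCODE M21, and 98.0% had the same start and end as there.

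RefSeq windows (GRCm38.p6) were matched by symbol for 87 of the 110 genes the rule named. Windows on chr18 were left out of every search and of the shares of windows given. A first search on both strands of windows of 300 bases (250 before and 50 after the start) covered 17 patterns, and the printed windows were chosen after it. The patterns, with the share of all windows holding each, were CACGTG (7.15%), TTATGTAA (0.938%), TAGGTCA (2.61%), both long forms of the ROR element (0.0548% and 0.0609%), TGACNNNGC (12.4%), TGACTCAGC (0.454%), the heat shock element (0.603%), TCACCCCAC (0.551%), the long form of that sterol element (0.0913%), nuclear receptor direct repeats spaced by 3 (0.00609%) and by 4 bases (0.0122%), AGATAA (11.2%), CCGGAAGT (3.89%), GGCGCC (11.9%), GTCTAGAC (0.213%) and a joint FOX and ETS element (0.131%). TAGGTCA and TCACCCCAC lie within their long forms, and TGACTCAGC is 1 form of TGACNNNGC.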

Additional observations from a re-analysis of the deposited data

How the results depend on the processing

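The number of genes called between PCN-treated and uninjected mice depended on the tool, the threshold and single libraries. Against 732 in edgeR, DESeq2 called 2435 (59.8% higher), no filter beyond 1 count 1296 and an adjusted p of 0.1 2713 (58.4% higher), whereas a test against a fold change of 1.5 called 4. Leaving out 1 library gave 0 to 5167 calls: 0 without HFD 4, 1 without HFD 30, 0 without HFD 38, 5167 without HFD PCN 5 (52.7% higher, with 731 of the 732 among them), 670 without HFD PCN 11 (463 of the 732) and 4 without HFD PCN 27. Fitting all 9 obese or all 12 libraries together gave 0 calls each (smallest adjusted p 0.161 and 0.0672, with 1676 and 1871 genes at an unadjusted p under 0.05), and 8 obese libraries without HFD Vehicle 50, a setting chosen after seeing the data, gave 1010. limma-voom called 508, DESeq2 size factors 747, upper quartile scaling 831 (74.2% higher), a minimum of 1 CPM 704, leaving out mitochondrial genes 730 and taking library sizes over all genes listed with a library 768. Between PCN and vehicle, edgeR called 0, DESeq2 7 and, without HFD Vehicle 50 (added after seeing the data), DESeq2 97, and leaving out each of the 3 PCN and 3 vehicle libraries in edgeR gave 0 to 0 (leaving out an HFD library was not run). No called gene named here changed direction under any of these settings. Among the uncalled, the log2 fold change of Lep ranged from -0.02 (without HFD PCN 11) to 0.49 over the libraries left out, and that of Slpi from -0.80 to 0.90 (without HFD 4), with 0.35 in limma-voom. The causes were not tested. No paired analysis was possible because the groups share no replicate numbers. Genes at a few counts, such as Nr1i2 and Cyp3a11, are beyond what this depth can compare.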

Other observations

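Carbon metabolism outside the adipocyte list showed both directions. Of 25 glycolysis and hypoxia genes 4 fell (Tpi1, Pgam1, Slc2a1 and Ankrd37) and 2 rose (Adm and Vegfa). This was 24% of the list, against 4.32% of all genes tested. Tpi1, a glycolytic isomerase, was at 345, 343 and 357 CPM in HFD 4, 30 and 38 and at 228, 235 and 200 CPM in HFD PCN 5, 11 and 27 (log2 fold change -0.66 ± 0.11, edgeR, adjusted p = 0.0289). Adm, the vasodilator adrenomedullin, was at 10.5, 11.9 and 13.7 CPM against 33.7, 31.6 and 53.3 CPM (log2 fold change 1.72 ± 0.22, edgeR, adjusted p = 0.0205), and its vehicle libraries were at 26.9, 13.3 and 23.5 CPM, all below the PCN libraries. Gys2, a glycogen synthase, was at 19.1, 18.4 and 20.9 CPM against 3.55, 5.72 and 3.37 CPM (log2 fold change -2.21 ± 0.21, edgeR, adjusted p = 0.017). All 47 nuclear-encoded respiratory chain genes had an estimate below 0 (median -0.35), but only Sdhd was called (2.1%). The groups did not overlap in 38 of them, and 19.5% of all genes tested were lower in PCN without overlap. Of 40 ribosomal protein genes none was called, with a median of -0.31.

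Csf1, the growth factor of macrophages, was at 55.4, 52.4 and 54 CPM against 79.3, 92.7 and 99.2 CPM and was the only call among 15 inflammatory cytokines (log2 fold change 0.75 ± 0.1, edgeR, adjusted p = 0.0237). Among 23 chemokines Cxcl1 rose by 1.51 and Cxcl14 fell by 1.39 on the log2 scale. Calls made up 6.7% of the cytokine list and 8.7% of the chemokine list, against 4.32% of all genes tested. Tnfrsf11b, a decoy receptor for RANK ligand, was at 1.41, 2.39 and 2.4 CPM in the HFD, 9.14, 4.13 and 5.85 CPM in the PCN and 1.3, 1.39 and 2.35 CPM in the vehicle libraries, so the PCN libraries were above all 6 others. The most abundant call, ENSMUSG00000097971, which the files leave without a symbol, had a log2 fold change of 1.45.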
